A study of Mus musculus with 2 samples.

Results

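Regional transcription factors of the forebrain were examined in RNA of the suprachiasmatic nucleus (SCN), the paired nucleus of the anterior hypothalamus that keeps circadian time. The list names 42 factors that mark telencephalon, preoptic area, arcuate, ventromedial and paraventricular nuclei, mammillary body and thalamus, and members were the rows of the deposited gene table that carry 1 of these names. Of the 42 names, 41 matched a row, out of 24229 rows in all. Foxa1 was not matched, so its RNA level is not analysed here. The NT library came from wild type C57BL/6 mice entrained to the NT cycle and the ST library from wild type C57BL/6 mice entrained to the ST cycle. NT and ST stand for a normal and a short T-cycle, that is, a light-dark schedule of set period. Both groups had 7 days of constant darkness (DD) first and then 4 weeks on their cycle. They were at postnatal day 68 and had again spent 5 days in DD when brains were taken at circadian time 4 h, and the SCN was cut by hand from slices of 250 µm. How many mice went into a library, and whether nuclear or cytoplasmic RNA was kept, the labels do not say. Each group of 8 mice is represented by 1 library, so no replicate error exists, no test between groups was made, and every ratio compares these libraries only.

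Regional identity in the forebrain is laid down in the embryo by combinations of homeodomain, T-box, forkhead, zinc finger and basic helix-loop-helix factors, and many of these genes stay on in the adult neurons of the region they helped to form. SCN neurons are GABAergic and arise from the anterior hypothalamus, next to the preoptic area and in reach of the arcuate, ventromedial and paraventricular nuclei. A slice cut by hand can hold parts of these neighbours. In bulk tissue, fewer cells of a type and less RNA per cell cannot be told apart, which applies to every ratio given here.

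The deposited counts totalled 19476800 in ST and 24790727 in NT. SCN identity was checked on 13 genes, all of which passed a mean normalised count of 50, with deposited RPKM (reads scaled by gene length and library total) in ST and NT of 168 and 197 for Vip and of 656 and 563 for Avp, the main SCN peptides. Their median log2 ratio of ST to NT was 0.03, with 0 past 2-fold. Of their counting intervals, 5 lay above 1 and 3 below. Oxt, a peptide of the neighbouring paraventricular nucleus, was above both Vip and Avp, at 812 RPKM in ST and 655 in NT. Avp and Oxt have fractional counts, and from which nucleus the Avp reads came was not tested. Most markers of other cell types were lower in ST, though only 1 marker, a meningeal one, was past 2-fold. All 6 oligodendrocyte markers, 5 endothelial, 5 microglial and 5 meningeal markers had a counting interval below 1, with median log2 ratios of -0.29, -0.35, -0.27 and -0.94. Of 5 astrocyte markers, 4 had an interval below 1 (median -0.06) and Aldh1l1 was at 0.05, and 4 pan-neuronal genes had a median of -0.00. Summed RPM values (reads scaled by the library total) ran from 4659 in ST to 5757 in NT for the oligodendrocyte markers, 140 to 177 for endothelium, 158 to 187 for microglia and 61.3 to 111 for meninges, and no marker of these lists was at 0.

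Levels of the regional factors spanned more than 3 orders of magnitude per length. The DLX factors, homeodomain proteins that drive GABAergic differentiation, were the most abundant family. Dlx6 stood first at 28.4 RPKM in ST and 29.1 in NT, followed by Dlx1 at 15.9 and 15.8. The gene length behind the Dlx6 value is 558 bases, against 4238 for Dlx1. By counts Dlx1 had more, 1309 and 1661 against 309 and 402. Otp, a homeodomain factor of neurosecretory neurons of the paraventricular nucleus, was next at 11.9 and 10.3, ahead of Dlx2 at 10.5 and 9.73 and Dlx5 at 7.87 and 9.52. These 5 held the same ranks in both libraries. The SCN factors Six6, Lhx1 and Six3 lay in the range of the DLX genes, at 19.8, 15.9 and 15.2 RPKM in ST. A mean level of at least 1 RPKM was reached by 15 of the 41 factors, and 10 lay under 0.1 RPKM. Cortical and posterior factors made up most of these 10, which were Emx1, Neurod2, Eomes, Lmx1b, Lmx1a, Emx2, Otx1, Barhl1, Neurod6 and Otx2, each with at most 8 reads in either library.

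**Figure D1:**
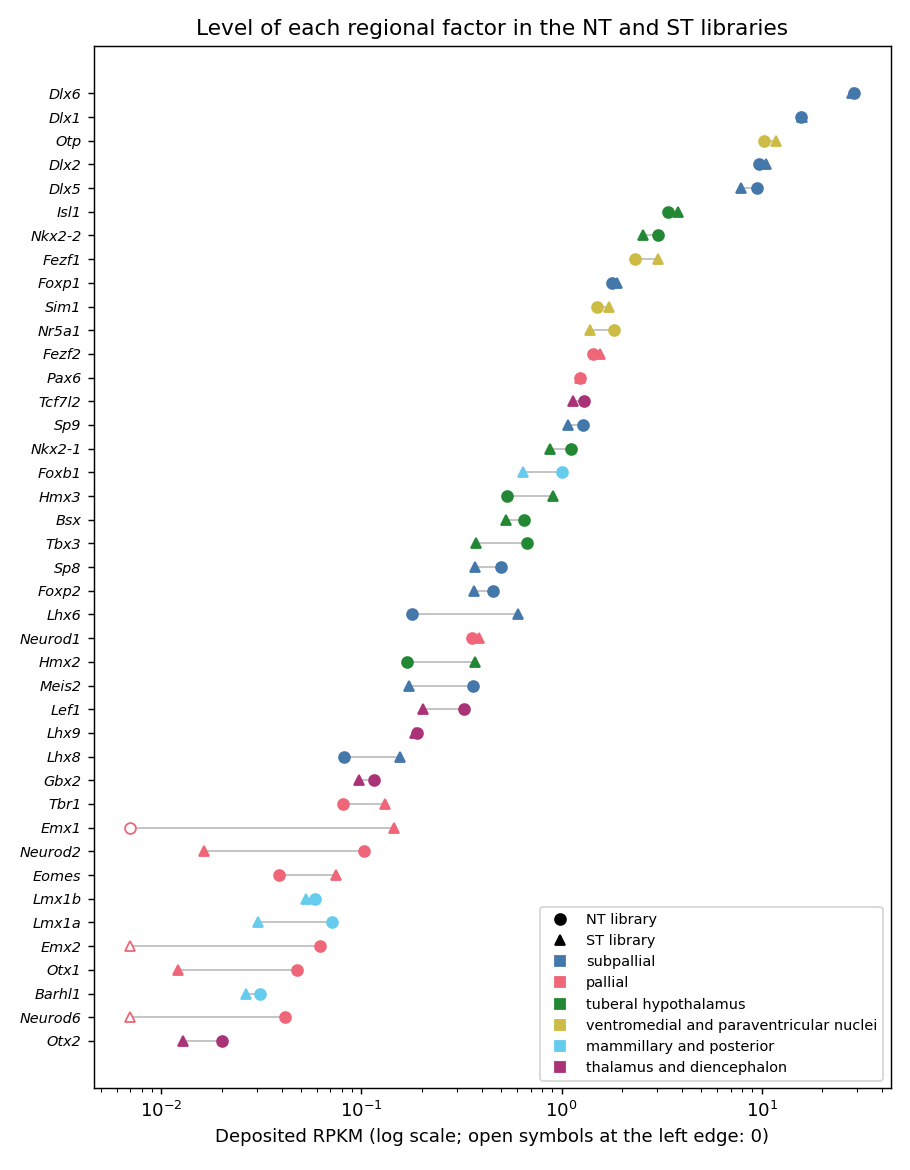
Deposited RPKM of the 41 regional factors (log axis) in the NT library (circles) and the ST library (triangles), 1 library each, coloured by the territory the factor marks and joined by a grey line; open symbols at the left edge are values of 0. The symbols of Dlx6, Dlx1, Otp, Dlx2 and Dlx5 lie close together at the top, while those of Lhx6 lie far apart at 0.608 in ST and 0.179 in NT.

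The largest difference among the factors with more than a few reads was in Lhx6. Lhx6 is a LIM-homeodomain factor of the medial ganglionic eminence that specifies cortical interneurons expressing somatostatin or parvalbumin and also marks GABAergic neurons of the ventral hypothalamus. The gene (ENSMUSG00000026890, mm9 chromosome 2, 35937470 to 35960928, minus strand) had 56 counts in ST and 21 in NT, although the NT library was the deeper. Scaled for depth, these are normalised counts of 62.9 and 18.7, a 3.37-fold higher level in ST with a 95% counting interval of 2.01 to 5.85. The authors' deposited table lists Lhx6 at an adjusted p of 0.0165, the only one of the 41 factors at or below 0.05, where 0.0413% of all 24229 rows are called higher and 0.161% lower. That p-value rests on the same 1 library per group, so no replicate error stands behind it. The mean normalised count of Lhx6, 40.8, lies under the filter of 50. Among all genes with a mean of 10 to 50, 2.26% were at least 2-fold higher and 3.67% at least 2-fold lower. Of the 7 regional factors in that range, Lhx6 alone was past 2-fold.

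Meis2 differed in the opposite direction. This TALE-homeodomain factor, a DNA-binding partner of PBX proteins, is expressed in striatum, amygdala and parts of hypothalamus. It had 40 counts in ST and 106 in NT (ENSMUSG00000027210, mm9 chromosome 2, 115688800 to 115891575, minus strand), or normalised counts of 44.9 and 94.4, and was 2.10-fold lower in ST (interval 1.45 to 3.10). The authors' deposited table gives it an adjusted p of 0.451. With a pseudocount of 5 the log2 ratio of Meis2 was -0.99, short of 2-fold.

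Of the 41 factors, 21 had a mean normalised count of at least 50. Among these, 0 were at least 2-fold higher and 1, Meis2, at least 2-fold lower, against 0.0209% and 0.23% of all 14343 genes above that count. A counting interval above 1 was found for 1 of the 21, Fezf1, against 7.79% of all genes. An interval below 1 was found for 6, namely Dlx5, Meis2, Tbx3, Nr5a1, Foxb1 and Lef1, against 10.2% of all genes. Of these 6, Tbx3, Nr5a1 and Foxb1 have fractional counts, as where reads are divided between features, so their values are less certain. The median log2 ratio of the 21 was -0.19, with 7 higher and 14 lower, and that of all genes was -0.00. It was 0.02 over the 14 of them with whole counts and -0.04 over the 28 with a mean of at least 10. Within the 21, the lower values lay mostly among factors with fewer reads. Of 12 factors with a mean of 50 to 200, 5 had an interval below 1, against 7.34% of all genes in that range, and 1 an interval above 1, against 3.51%. Of 9 with a mean of 200 or more, 1 had an interval below 1, Dlx5. The 20 factors with a mean under 50 enter none of these counts, and 13 of them had a mean under 10. The other 7, with a mean of 10 to 50, did not lie lower. Their median log2 ratio was 0.14, with 0 intervals below 1 and 1 above, that of Lhx6.

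**Figure D2:**
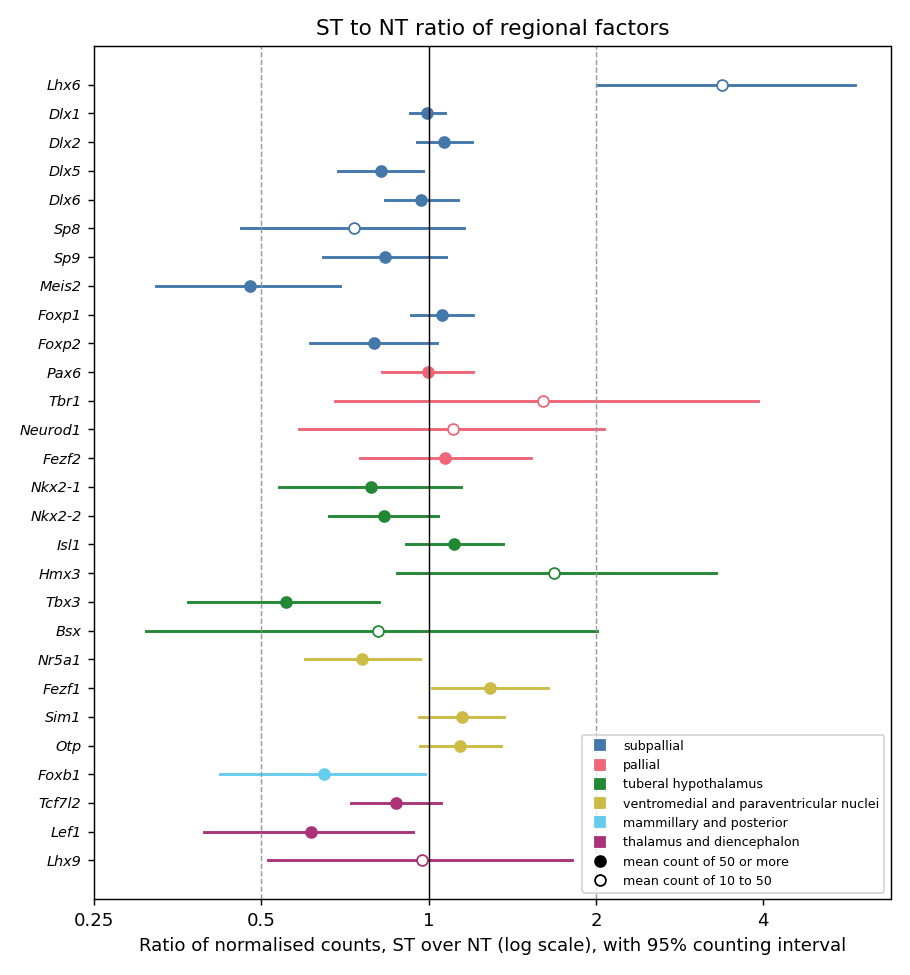
Ratio of normalised counts, ST over NT (log axis), of the 28 regional factors whose mean normalised count is 10 or more, 1 library per group; bars are 95% counting intervals, dashed lines mark 2-fold, and open circles have a mean under 50. Lhx6 is the only factor whose whole bar lies right of the line at 2, and the bars of Dlx5, Meis2, Tbx3, Nr5a1, Foxb1 and Lef1 end left of 1.

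The series asks about DNA methylation, which in mammals falls mainly on the dinucleotide CG, and although no methylation was measured in these files, the sequence of the start regions can be shown. RefSeq start regions (build GRCm38.p6) were found for 35 of the 42 names, Foxa1 included, in 51 windows. The 250 bases before each start were read. All 51 windows matched a single place in mm9. The windows held a median of 12 CG, against 6 over 32851 windows of all genes (quartiles 2 and 16). The homeodomain core motif TAATTA, which reads the same on both strands, was found in 5 of the 51 (9.80%) and in 4.84% of all. Windows of the same gene were counted separately, and Otx2 windows 1 and 3 were both among these 5. The sequences below are those of Lhx6, the factor with the highest ratio among those with a mean of at least 10, of Lef1, 1 of the lower factors, and of Dlx2, a factor of near-equal level. They lie outside annotated exons, at chr2:35960929-35961178 (minus strand) for Lhx6, chr3:130812965-130813214 (plus strand) for Lef1 and chr2:71384812-71385061 (minus strand) for Dlx2, in mm9 and are written 5′ to 3′ with each CG in capitals.
Lhx6: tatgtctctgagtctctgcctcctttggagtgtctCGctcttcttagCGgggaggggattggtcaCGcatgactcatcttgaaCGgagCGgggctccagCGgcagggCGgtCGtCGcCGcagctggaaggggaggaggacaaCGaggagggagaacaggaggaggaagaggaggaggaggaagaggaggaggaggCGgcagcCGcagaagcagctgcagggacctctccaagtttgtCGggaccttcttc
Lef1: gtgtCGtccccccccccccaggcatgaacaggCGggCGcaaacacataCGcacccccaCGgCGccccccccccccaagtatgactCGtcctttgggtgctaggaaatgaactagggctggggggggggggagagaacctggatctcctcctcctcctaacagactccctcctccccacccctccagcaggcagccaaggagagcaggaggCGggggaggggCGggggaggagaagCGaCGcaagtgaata
Dlx2: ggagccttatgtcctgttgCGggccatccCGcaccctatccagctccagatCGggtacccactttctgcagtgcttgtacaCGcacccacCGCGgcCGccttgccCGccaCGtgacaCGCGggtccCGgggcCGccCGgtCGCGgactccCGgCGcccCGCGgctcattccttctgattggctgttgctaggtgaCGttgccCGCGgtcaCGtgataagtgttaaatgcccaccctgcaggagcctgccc
These windows hold 14, 11 and 24 CG. Other start regions of the same genes differ, with 17 and 7 CG for Lhx6 and 14, 6 and 5 for Lef1. TAATTA is in none of these 3 windows.

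Subpallial factors build the GABAergic territories of the ventral telencephalon. Of the 8 above the filter, 6 were lower and 2 higher in ST, with a median log2 ratio of -0.15. Dlx1 had 1309 counts in ST and 1661 in NT, a log2 ratio of -0.01 that turned to 0.00 with scaling by total counts (fold interval 0.924 to 1.07). Dlx2 was at 0.09 (569 and 673 counts, interval 0.953 to 1.19) and Dlx6 at -0.04 (309 and 402 counts, 0.834 to 1.13). Dlx5 was lower, at -0.29 (215 and 331 counts, 0.687 to 0.976). Dlx genes lie as convergent pairs, and in mm9 Dlx1 and Dlx2 are 9427 bases apart on chromosome 2 and Dlx5 and Dlx6 10475 bases apart on chromosome 6. An antisense transcript, Dlx1as, overlaps Dlx1 along 5299 bases and had 126 and 157 counts (log2 ratio 0.02, interval 0.795 to 1.29). Dlx1 has fractional counts and the use of strand in counting is not given in the sources used here, so reads of Dlx1 and Dlx1as cannot be told apart. Nor can reads of Dlx6 be told from those of Dlx6os1, an antisense transcript that overlaps it along 3580 bases.

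The zinc finger factors Sp8 and Sp9, which act beside DLX proteins in interneurons and striatal neurons, were at -0.44 (32 and 55 counts, interval 0.460 to 1.16) and -0.26 (105 and 159 counts, 0.645 to 1.07). Foxp1 and Foxp2, forkhead factors of striatal and other projection neurons, were at 0.08 (441 and 527 counts, 0.929 to 1.2) and -0.33 (96 and 152 counts, 0.611 to 1.04). These 4 intervals held 1. Lhx8, which with Lhx6 specifies ventral forebrain neurons and maintains cholinergic ones, had 6 counts in ST and 4 in NT (interval 0.449 to 9.12).

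Genes that go with Lhx6 in interneurons lay on either side of 1. Of 15 measured genes of that lineage, 8 were higher and 7 lower in ST (median log2 ratio 0.01), and 0 were past 2-fold. Sst, the peptide somatostatin, was at 0.24 (fold interval 1.14 to 1.22), the calcium buffer Pvalb at 0.25 (0.843 to 1.68), the neurexin ligand Nxph1 at -0.34 (0.694 to 0.897) and the chemokine receptor Cxcr4 at -0.34 (0.594 to 1.04). SCN and neighbouring hypothalamus also express Sst, so it does not mark interneurons alone. Chat, the enzyme of acetylcholine synthesis downstream of Lhx8, had 2 counts in ST and 1 in NT, and of 5 cholinergic markers 0 reached the filter. The 4 genes of GABA identity had a median of -0.04, and 3 of them had an interval below 1.

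Pallial factors, which mark cortex and hippocampus, were near the floor. Emx1 had 3 counts in ST and 0 in NT, Neurod6 0 and 2, Otx1 1 and 5, and Eomes, a T-box factor of cortical progenitors, 6 and 4. Emx2, a homeodomain factor of the cortical primordium, had 0 counts in ST and 4 in NT (the interval of the ratio reaches 1.91). Neurod2, a helix-loop-helix factor of cortical projection neurons, had 1 and 8 counts (ratio 0.158, interval 0.00356 to 1.18). Tbr1, a T-box factor of deep-layer cortex, had 14 and 11 counts (interval 0.677 to 3.91). At these counts a difference in pallial factors was not detectable. A count of 3 corresponds to 0.154 RPM in ST and 0.121 in NT. Slc17a7, the vesicular glutamate transporter of cortical neurons, had 12 counts in ST and 17 in NT.

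The other pallial names are also used elsewhere in the forebrain and had more reads. Pax6, a paired-homeodomain factor of radial glia, astrocytes and some hypothalamic neurons, had 205 and 260 counts with a log2 ratio of -0.01 (0.01 with total-count scaling, fold interval 0.825 to 1.2). Fezf2, a zinc finger factor of deep-layer cortex that is also active in hypothalamus, had 62 and 73 counts (0.10, interval 0.752 to 1.52). Neurod1 had 21 and 24 counts (0.14, 0.585 to 2.07). All 3 intervals held 1, and Pax6 and Neurod1 have fractional counts.

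Among factors of the tuberal hypothalamus above the filter, Tbx3 differed most. Tbx3 is a T-box factor of arcuate neurons that keeps the identity of Pomc neurons. It had 39 counts in ST and 89 in NT (ENSMUSG00000018604, mm9 chromosome 5, 120120678 to 120134733, plus strand), a 1.81-fold lower level in ST (interval 1.23 to 2.71). Nkx2-1, a homeodomain factor needed for the whole tuberal region, was at -0.34 on the log2 scale (48 and 77 counts, fold interval 0.537 to 1.14). Nkx2-2, which in the adult also marks oligodendrocyte precursors, was at -0.27 (133 and 202 counts, 0.663 to 1.04). Isl1, a LIM-homeodomain factor of arcuate and striatal neurons, was at 0.15 (186 and 211 counts, 0.909 to 1.36). The last 3 intervals held 1.

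The homeodomain pair Hmx2 and Hmx3, which specifies neurons that make growth hormone-releasing hormone, had 12 and 7 counts for Hmx2 and 24 and 18 for Hmx3 in ST and NT (intervals 0.785 to 6.49 and 0.876 to 3.29). Bsx, a homeodomain factor of arcuate Agrp and Npy neurons, had 9 and 14 counts (0.310 to 2.01). None of these 3 reached the filter, and their ratios cannot be told from 1 at this depth.

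Output genes of the arcuate nucleus lay on the lower side as well. All 4 measured genes were lower in ST, 3 with an interval below 1, with a median log2 ratio of -0.44. They were Pomc at -2.41, the dopamine transporter Slc6a3 at -0.63, Cartpt at -0.25 and Tac2 at -0.14. Ghrh, growth hormone-releasing hormone, which lies under the filter and was named after its values were seen, had 19 counts in ST against 49 in NT (ratio interval 0.272 to 0.847). Agrp, also under the filter, had 12 and 17 counts, and its interval held 1 (0.388 to 1.98). The part of this region's share of the tissue in the ratio of Tbx3 was not tested.

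Factors of the ventromedial nucleus went in opposite directions. Nr5a1, the nuclear receptor SF-1 that defines ventromedial neurons, had 115 counts in ST and 191 in NT (ENSMUSG00000026751, mm9 chromosome 2, 38548176 to 38570062, minus strand) and was 1.32-fold lower in ST (interval 1.04 to 1.67). Fezf1, a zinc finger factor needed for that nucleus to form, had 142 and 139 counts (ENSMUSG00000029697, mm9 chromosome 6, 23195050 to 23198362, minus strand) and was 1.29-fold higher (1.01 to 1.64). Both intervals end close to 1. The 4 ventromedial output genes had a median of -0.10, with Gda at -0.16 (0.863 to 0.928) and the peptide gene Adcyap1 at 0.16 (1.001 to 1.25).

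Factors of the paraventricular nucleus were slightly higher, within counting error. Sim1, a PAS-domain factor without which neurosecretory neurons are lost, had 248 and 273 counts (log2 ratio 0.20, fold interval 0.962 to 1.37). Otp had 271 and 300 counts (0.19, 0.964 to 1.35). Trh and Oxt, peptides of this nucleus, had more reads than these factors, and so narrower intervals, which were clear of 1. Trh was at 0.56 (2440 and 2083 counts, 1.39 to 1.57) and Oxt at 0.30 (8789 and 9026 counts, 1.19 to 1.27). These intervals cover counting error only. Crh, under the filter and named after its values were seen, had 32 counts in ST and 15 in NT (1.42 to 5.35). Summed over Nr5a1, Fezf1, Sim1 and Otp the log2 ratio was 0.12 (0.984 to 1.2).

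Mammillary and posterior factors had few reads. Foxb1, a forkhead factor of the mammillary body, had 36 counts in ST and 70 in NT (ENSMUSG00000059246, mm9 chromosome 9, 69605559 to 69608634, minus strand) and was 1.54-fold lower in ST (interval 1.02 to 2.37). Its overlapping antisense locus B230323A14Rik had 58 and 75 counts (log2 ratio -0.03, interval 0.681 to 1.39). Lmx1a and Lmx1b, LIM-homeodomain factors of the posterior hypothalamus and midbrain dopamine neurons, had 2 and 6 and 5 and 7 counts. Barhl1, a homeodomain factor of mammillary and subthalamic territories, had 2 and 3.

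Of 5 thalamic and general diencephalic factors, 2 passed the filter. Both were lower in ST, 1 of them with an interval below 1. Lef1 and Tcf7l2 are the DNA-binding partners of beta-catenin at WNT target genes, and both mark thalamic neurons. Lef1 is also expressed in brain endothelium and Tcf7l2 in maturing oligodendrocytes. Lef1 had 34 counts in ST and 70 in NT (ENSMUSG00000027985, mm9 chromosome 3, 130813389 to 130927274, plus strand) and was 1.63-fold lower in ST (interval 1.07 to 2.53). Tcf7l2 had 194 and 280 counts (log2 ratio -0.19, fold interval 0.724 to 1.05). The endothelial and oligodendrocyte markers given above were lower in the same library, and their part in these ratios was not tested. Gbx2, a homeodomain factor of thalamic neurons, had 4 and 6 counts, Lhx9 20 and 26 (0.514 to 1.81), and Otx2, which marks the early forebrain and midbrain and in the adult the choroid plexus, 1 and 2. Output genes of thalamus had a median of 0.01 over 4 genes, with Prkcd at 0.23 (1.01 to 1.38).

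**Figure D3:**
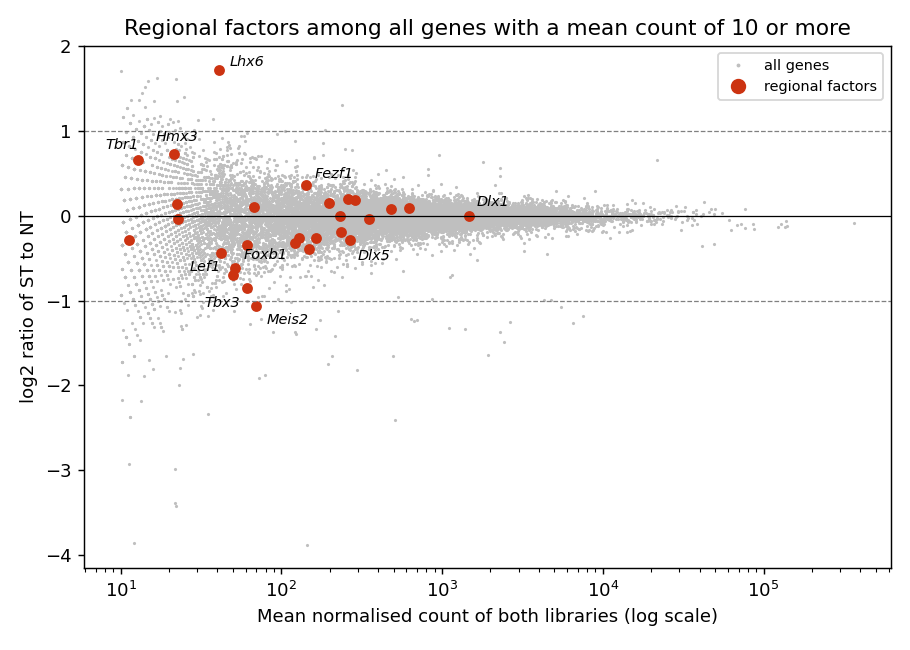
log2 ratio of ST to NT against the mean normalised count of both libraries (log axis), for every gene with a mean of at least 10 (grey) and the regional factors among them (red), 1 library per group; dashed lines mark 2-fold. Lhx6 at 1.72 lies above the grey cloud at its count, Meis2 at -1.06 lies at its lower edge, and Dlx1 lies on the line at 0.

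Other regional factors that are not members spread to either side. Of 30 measured, 18 were higher and 12 lower in ST (median log2 ratio 0.08), with 6 intervals above 1 and 3 below, and 1 gene at least 2-fold higher. The bZIP factor Maf was at -0.57 (fold interval 0.555 to 0.811) and Prox1, a homeodomain factor, at -0.41 (0.609 to 0.921). The 20 cofactors of LIM and homeodomain proteins had a median of -0.03, with 2 intervals above 1 and 2 below. Pbx3, a partner of MEIS proteins, was at -0.36 (0.610 to 0.987). The antisense transcript Nkx2-2as had 34 and 45 counts (0.592 to 1.52), 6430503K07Rik, also antisense at Nkx2-2, 12 and 15 (0.432 to 2.31), and Six3os1 231 and 335 (0.733 to 1.03). Antisense loci at Nr5a1 (4933433P16Rik) and Tbx3 (Gm2301) had 0 counts in ST against 2 and 4 in NT. Dlx6os1, antisense to Dlx6 along 3580 bases, Pax6os1 at Pax6 and Gm17325 at Neurod1 were not matched to a row and are not analysed here. Genes of the striatal list had a median of 0.04 over 7 genes, with 0 intervals clear of 1, and those of the cortical list -0.02 over 6. Camk2a of the cortical list had 8371 counts in ST and 11339 in NT, against 12 and 17 for Slc17a7. Whether either list marks its region in this tissue was not tested.

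**Figure D4:**
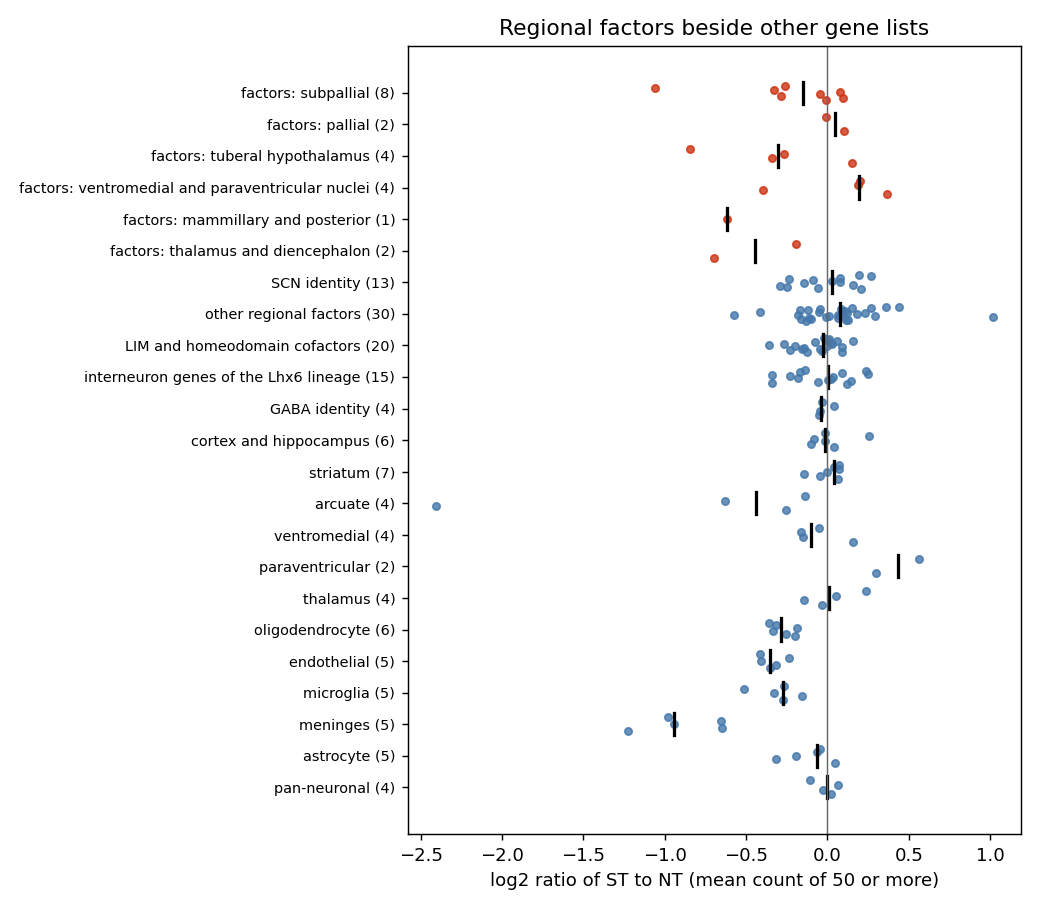
log2 ratio of ST to NT of each gene whose mean normalised count is 50 or more, for the regional factors by territory (red) and for other gene lists (blue), 1 library per group; black bars are medians and numbers in brackets are genes. The arcuate list lies left of 0 with Pomc at -2.41, the paraventricular list right of 0, and the oligodendrocyte, endothelial, microglial and meningeal lists wholly left of 0.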

How the data were processed

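The series holds 2 libraries of SCN polyadenylated RNA, 1 for each T-cycle group. CASAVA 1.8.2, TopHat 1.2, DESeq and the build mm9 are named per the submitters' processing notes. The counting tool, its strand setting and the annotation were not given in the sources used here. Estimated counts (RC, per the file headers) were deposited by the authors. They are not whole (tolerance 1e-06) for 42.4% of rows in ST and 43.1% in NT. The authors also deposited RPKM and RPM values, scaled by library total and, for RPKM, gene length. Their deposited comparison gives a ratio (fold change), the log2 of that ratio, and a p-value, raw and adjusted. Another 3 columns of means were not used.

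Counts were rounded and scaled by size factors of 0.89 (ST) and 1.12 (NT), the median of ratios. The log2 ratio used a pseudocount of 0.5, and folds used none. The 95% interval was computed from the binomial share of reads that fell in ST (Clopper-Pearson, exact) and corrected for depth. Without molecular identifiers reads are not independent, so intervals and the RPM of 3 counts cover counting error only. With 1 library per group, a fold of 2 at a mean normalised count of 50 or more stood in for a test. The scripts were tested on simulated data. Gene positions come from the deposited table, and strand, exons and antisense loci from GENCODE vM1 on NCBIM37 (mm9).

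The text names every factor, the overlapping antisense transcripts that are not protein-coding, and up to 4 measured genes of each further list, taken by the size of their log2 ratio. Some genes of these lists are counted but not reported here by name. Members, territories and lists were chosen with earlier results of these data known. Alternatives were other scalings (total counts, TMM from edgeR 4.0.16, deposited RPM), filters of 10, 200 and none, a pseudocount of 5, a 1.5-fold rule, the mean, and whole counts only. Python 3.11.15, numpy 2.4.6, pandas 2.3.3 and scipy 1.17.1 were used.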

Additional observations from a re-analysis of the deposited data

How the results depend on the processing

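No paired analysis was possible because NT and ST are 1 library each, which also leaves no replicate to omit. With a filter of 10, 1 factor was at least 2-fold higher and the interval of 2 lay above 1. With a filter of 200, 0 were at least 2-fold lower, 0 had an interval above 1 and 1 had an interval below 1. With no filter, 3 were at least 2-fold higher, 6 at least 2-fold lower and 2 had an interval above 1. These shifts follow from the number of factors kept, 28, 9 and 41. With a pseudocount of 5, 0 were at least 2-fold lower on that log2 scale, by construction of the setting. With whole counts only, 3 had an interval below 1, over 14 factors. A 1.5-fold rule gave 4 lower. The median log2 ratio of -0.19 depended on which factors were kept, at -0.0427 with a filter of 10, -0.00703 with a filter of 200 and 0.0175 with whole counts only. With no replicates a median has no error here, and moves of at least 0.05, a limit chosen after these values were seen, are given. Scaling by total counts or by TMM shifts every ratio alike, by 0.0122 and 0.000135. The first of these, and the ratio of deposited RPM, changed the sign of Dlx1 and Pax6, both near 0. Depth limits the 13 factors with a mean under 10, whose intervals all held 1.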
